A study of Mus musculus with 2 samples.

Results

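The replication-dependent histone genes were examined in a map of DNase I hypersensitive sites (DHS) from mouse splenic B cells. They were taken as the protein-coding genes of the GENCODE M1 annotation whose name starts with Hist1h, Hist2h, Hist3h or Hist4h, which gave 67 genes of 22350 protein-coding genes on chromosomes 1 to 19 and X. A gene was said to have a DHS when a peak overlapped the region within 1 kb of any of its annotated transcription start sites (TSSs). The cells came from C57/Bl6 animals aged 8 weeks with the genotype Trp53+/+ and mock treatment, and were selected magnetically for B220, a surface marker of B cells. There was 1 DNaseI library, whose deposited peak list held 47542 DHS, and 1 input library of the same description. Without replicates no difference could be tested, so every comparison is a description of this library. The depth of sequencing is unknown, and a gene without a DHS is only a gene at which no peak was called.

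Replication-dependent histone genes encode the core histones H2A, H2B, H3 and H4, which form the nucleosome, and the linker histone H1, which binds between nucleosomes. They lie in clusters, of which Hist1 is the largest, and H2A and H2B genes often sit head to head so that their transcripts run apart from a common upstream region. Their mRNAs are made mainly in S phase and end in a conserved stem-loop instead of a poly(A) tail, which SLBP binds, while NPAT brings the transcription machinery to the clusters.

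The promoter sequences that differed most in DHS score are shown first, because the results turn on which genes of a class carried a DHS. The score is the authors' own value for each peak, whose scale is not stated, so that differences in score need not be proportional to signal. It ran from 5.05 to 619.44 over the list with a median of 32.65. For the classes H1, H3 and H4, the member with the highest score is followed by the member without a DHS or, for H3, with the lowest score, from 160 bases before to 20 bases after the start (the first base of the transcript included) on build mm9. Capitals mark a match on either strand to any of 4 words. The TATA box was searched as the letters TATAAA and the site of the transcription factor NF-Y as CCAAT. The octamer, which OCT-1 and OCT-2 recognise, was searched as the letters ATGCAAAT. Part of a promoter element known from H4 genes was searched as GGTCCG.
Hist1h1e, chr13:23714352-23714531, minus strand: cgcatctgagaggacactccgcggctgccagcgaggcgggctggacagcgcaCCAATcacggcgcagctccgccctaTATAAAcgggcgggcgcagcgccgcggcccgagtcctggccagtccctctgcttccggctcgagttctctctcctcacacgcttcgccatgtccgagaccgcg
Hist1h1t, chr13:23787520-23787699, plus strand: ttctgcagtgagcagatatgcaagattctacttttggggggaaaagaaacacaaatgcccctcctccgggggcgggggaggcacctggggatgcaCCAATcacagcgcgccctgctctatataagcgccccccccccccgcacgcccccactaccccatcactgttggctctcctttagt
Hist2h3b, chr3:96072417-96072596, plus strand: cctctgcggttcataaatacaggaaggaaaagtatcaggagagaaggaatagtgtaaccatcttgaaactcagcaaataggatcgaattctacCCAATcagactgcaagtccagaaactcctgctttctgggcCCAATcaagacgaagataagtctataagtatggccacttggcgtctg
Hist1h3b, chr13:23843976-23844155, plus strand: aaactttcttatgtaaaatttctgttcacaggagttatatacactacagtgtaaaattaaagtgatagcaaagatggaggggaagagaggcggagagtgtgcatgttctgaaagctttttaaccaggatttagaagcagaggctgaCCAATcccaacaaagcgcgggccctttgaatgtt
Hist4h4, chr6:136752881-136753060, minus strand: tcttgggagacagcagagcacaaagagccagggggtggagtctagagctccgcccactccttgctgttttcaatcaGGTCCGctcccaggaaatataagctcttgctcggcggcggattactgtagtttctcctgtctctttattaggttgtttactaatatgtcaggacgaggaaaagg
Hist1h4m, chr13:21903455-21903634, plus strand: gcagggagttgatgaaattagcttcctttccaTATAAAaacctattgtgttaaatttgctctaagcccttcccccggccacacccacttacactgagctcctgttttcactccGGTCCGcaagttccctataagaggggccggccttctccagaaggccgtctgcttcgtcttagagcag

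Hist1h1e and Hist1h1t both held a CCAAT word, with a score of 407.4 at the former and no DHS at the latter. Both H4 promoters held GGTCCG, with the highest score of any histone gene at Hist4h4 and no DHS at Hist1h4m. TATAAA stood at Hist1h1e and Hist1h4m but not at Hist1h1t or Hist4h4. Neither CCAAT nor GGTCCG separated the gene with the high score from the gene without a DHS in these classes. Over the region from 250 bases before to 50 bases after the TSS, CCAAT stood in 57 of the 67 histone promoters (85.1%) and in 36.6% of all protein-coding promoters. TATAAA stood in 55.2% of the histone promoters and in 13.8% of all. The octamer stood in 15 histone promoters (22.4%), 7 of 19 H2A and 8 of 18 H2B, and in 1.75% of all promoters, while no H1, H3 or H4 promoter held it. GGTCCG stood in 12 of 13 H4 promoters and in 9.88% of all promoters. CCAAT was rarest in H4 promoters, with 19 of 19 H2A, 18 of 18 H2B, 6 of 6 H1, 10 of 11 H3 and 4 of 13 H4 promoters. Among the 9 histone genes without a DHS, 8 held CCAAT, 3 held TATAAA and 2 held the octamer. A head-to-head pair counts the words of its shared upstream region for both genes, and a word is no more than a match of letters.

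At the other end of the genes, the histone stem-loop stood on the sense strand within 150 bases after the stop codon of 62 of the 67 histone genes (92.5%) and of 0.3% of all protein-coding genes. These were all 6 H1, 11 H3 and 13 H4 genes, 17 H2A and 15 H2B genes. The forms found most often are shown because they are the feature by which the mRNAs of these genes are processed.
Stem-loop of 38 genes: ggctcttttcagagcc
Stem-loop of 9 genes: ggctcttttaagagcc
Stem-loop of 8 genes: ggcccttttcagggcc
The last form was found in H4 genes, Hist4h4 among them. Of the 62 genes with the stem-loop 55 had a DHS. Of the 5 genes at which it was not found (Hist1h2an, Hist1h2bq, Hist1h2al, Hist2h2be and Hist2h2bb) 3 had one. Hist1h2al has no annotated start codon, and no stop codon was searched there. Hist1h2bq lies in sequence identical to that of Hist1h2br, where the stem-loop was found, so these 2 genes are not shown to lack it.

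Most histone genes carried a DHS at the promoter in these B cells. A DHS was called at 58 of the 67 genes (86.6%, exact 95% interval 76 to 93.7%), against 53.7% of all protein-coding genes. By promoter type, histone genes with a CpG-rich promoter had a DHS at 24 of 29 (82.8%), near the 84.1% of all CpG-rich promoters, and those with another promoter at 34 of 38 (89.5%), against 37.1%. Cytoplasmic ribosomal protein genes, which are active in all cells, had one at 76 of 76 genes (95.3 to 100%). Most histone genes have a single exon (61 of 67), yet of the other single-exon protein-coding genes only 344 of 2781 had a DHS (12.4%). The intervals cover counting error only, and neighbouring genes share peaks, so that genes are not independent. The 58 genes had 57 distinct DHS between them, 28 of these lay in the windows of 2 or more histone genes, and 39 genes had such a peak. Counting only genes whose TSS nearest to the start codon lay inside a peak, the share was 50 of 67 (74.6%), against 38.3% of all protein-coding genes, or 46.6% when any TSS of a gene was accepted.

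**Figure D1:**
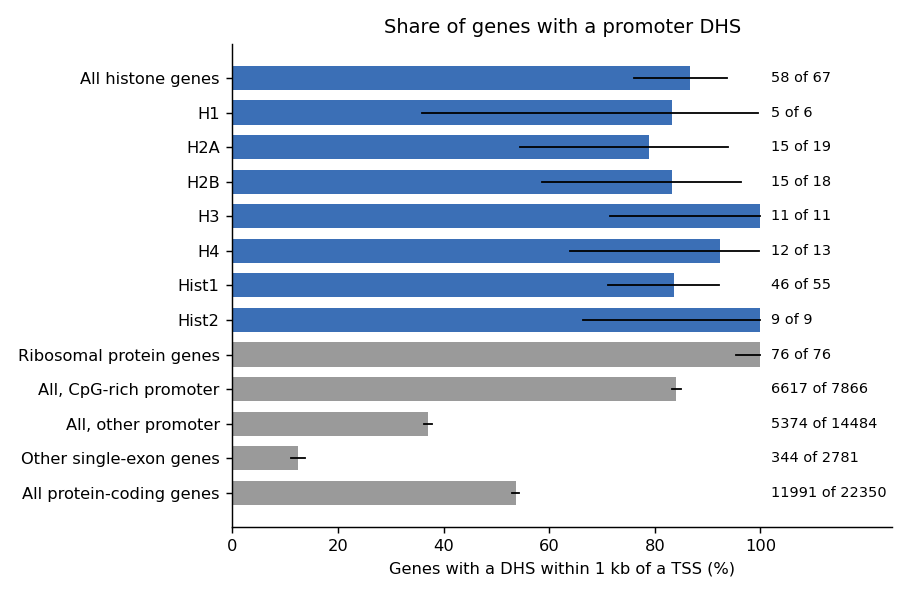
Percentage of genes with a DHS within 1 kb of a TSS for all histone genes, the 5 classes and the Hist1 and Hist2 clusters (blue), and for comparison groups (grey); black lines are exact 95% binomial intervals and the counts stand at the right. Every histone class lies at 78.9% or above, while all protein-coding genes lie at 53.7%.

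The highest-scoring peak of a gene had a median of 145.3 over the 58 histone genes, with quartiles at 100 and 224 and a range of 29.92 to 496.2. The median was 101.7 over all protein-coding genes with a DHS and 138.2 over ribosomal protein genes. These medians count a peak shared by neighbours once for each gene. Over all distinct peaks in the windows, the weaker peaks of a gene included, the median score was 106 at histone genes. It was 122 at ribosomal protein genes and 73.7 at all protein-coding genes. Histone genes stood below ribosomal protein genes in this median. It takes in weaker peaks as well as counting shared peaks once, so it does not isolate the part of sharing. A peak at or above the median score of the whole list stood at 57 of the 67 genes, against 47.4% of all protein-coding genes, and Hist1h4n alone of the genes with a DHS had only a weaker one. Promoters rich in CpG had the lower scores among histone genes, with a median of 106.2 over 24 genes against 209.1 over the 34 others with a DHS. Over all protein-coding genes the order was the reverse, 113.3 at CpG-rich promoters against 86.5 at the others. The CpG-rich histone promoters were mostly those of H2A (13 of 19) and H2B genes (12 of 18), whereas 1 of 11 H3 and 1 of 13 H4 promoters were CpG-rich.

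Among the classes, the linker histone genes had the highest median score. Of the 6 H1 genes, Hist1h1e had 407.4, Hist1h1c 308.6, Hist1h1b 213.7, Hist1h1d 210.8 and Hist1h1a 145.1, each under a single DHS that contained the TSS. These DHS were wide, with a median width of 2445 bp against 1088 bp for the peaks at all protein-coding genes. The sixth, Hist1h1t, encodes the linker histone of the testis and had no DHS within 1 kb. The nearest, 1784 bp away, was the peak over the TSS of Hist1h4c. None of the 31-base words in the window of Hist1h1t occurred more than once in the genome.

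H4 genes held both ends of the score range. Among them 12 of 13 had a DHS, with a median score of 142.8. Hist4h4, the single gene of its cluster on chromosome 6, had 496.2, followed by Hist1h4h with 400.3, Hist1h4c with 314.4 and Hist2h4 with 252.2. At the lower end stood Hist1h4f with 81.53, Hist1h4k with 76.86 and Hist1h4n with 29.92, and Hist1h4m had no DHS. All these genes encode the core histone H4. H3 genes had a DHS at 11 of 11, with a median of 179.2 and a range of 88.15 (Hist1h3b) to 283.6 (Hist2h3b).

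H2A and H2B genes had the lowest median scores of the 5 classes. H2A genes had a DHS at 15 of 19 (78.9%) with a median score of 108.3, and H2B genes at 15 of 18 (83.3%) with a median of 117.6. The highest H2A score was 290.6 at Hist3h2a. The highest H2B score was 407.4 at Hist1h2be, but this was the peak at Hist1h1e: the annotated starts of Hist1h2be lie 35138 bp from its start codon, and the DHS that covered the start codon had a score of 200.4. Of the genes with a DHS, 10 of 15 H2A genes had the TSS inside a peak, against 15 of 15 H2B, 5 of 5 H1, 9 of 11 H3 and 11 of 12 H4 genes. The share of H2A genes (66.7%) was near that of all protein-coding genes with a DHS (71.3%). The exact intervals of the shares with a DHS overlapped among all 5 classes. They treat genes as independent and are no test between classes, so no order of the classes is drawn from that share.

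**Figure D2:**
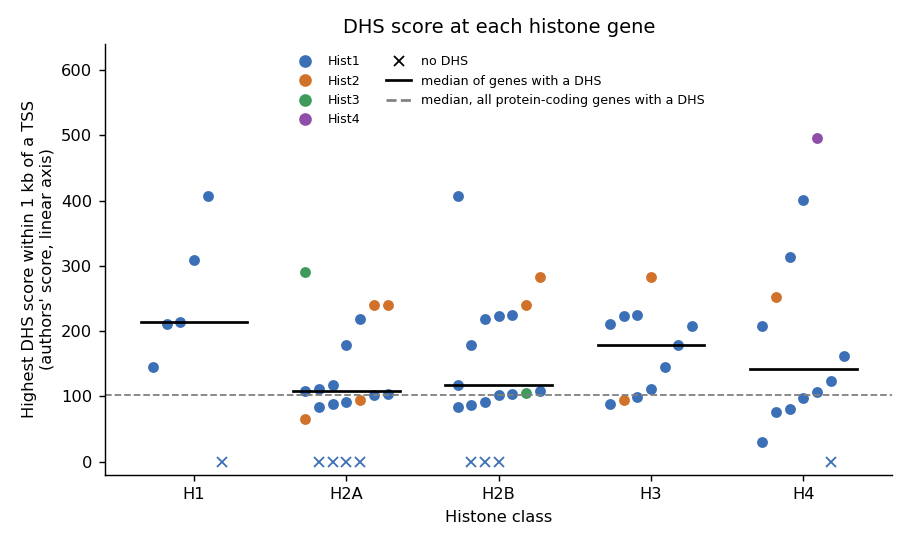
Highest DHS score within 1 kb of a TSS (authors' score, on a linear axis) for each of the 67 histone genes by class, coloured by cluster; crosses at 0 are genes without a DHS, black lines the class medians and the dashed line the median of all protein-coding genes with a DHS (101.7). H1 genes with a DHS sit between 145.1 and 407.4, whereas H4 genes spread from 29.92 to 496.2.

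Hist1 on chromosome 13 had a DHS at 46 of 55 genes (83.6%, exact interval 71.2 to 92.2%) with a median score of 120.6. Hist2 on chromosome 3 had one at 9 of 9 genes (66.4 to 100%) with a median of 239.9. Both Hist3 genes on chromosome 11 had one, Hist3h2a with 290.6 and Hist3h2ba with 106, and so did Hist4h4. The intervals of Hist1 and Hist2 overlapped, and a difference in the share of genes could not be tested.

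Within Hist1, separate blocks of genes (more than 100 kb apart) varied. The largest block, chr13:23622919-23856283, held 29 genes, of which 28 had a DHS, with a median score of 207.9. In that block, with 1 kb added on each side, 37 DHS were called, 157 per Mb against 18 per Mb over the genome, and 28 of them lay at histone genes. A small block of 5 genes at chr13:22126982-22135545 had a DHS at each, with a narrow score range of 84.29 to 97.49. The block at chr13:21807632-21929399 had a DHS at 13 of 18 genes with a median of 117.6. The remaining 3 genes of Hist1, Hist1h2ba with Hist1h2aa and the isolated Hist1h2al, had none. Not every DHS of the large block lay at a histone promoter: Hfe, the iron regulator inside it, had a DHS over its TSS with a score of 50.64.

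In Hist2, the 9 genes had 7 DHS between them. A single peak of 3672 bp at chr3:96022556-96026227 (score 239.9) covered the starts of Hist2h2ab, Hist2h2ac and Hist2h2be. Another, at chr3:96071941-96074287 (283.6), covered those of Hist2h3b and Hist2h2bb, and Hist2h4 had its own (252.2). The remaining genes, in a duplicated stretch, had much lower scores: Hist2h2aa2 had peaks of 38.58 and 65.29, and Hist2h2aa1 shared peaks of 13.39 and 94.15 with Hist2h3c1. None of these 3 had the TSS inside a peak. At Hist2h3c1 the DHS lay near a transcript start farther upstream, and 1286 bp from the start next to its start codon. Their windows held 57.8%, 59.5% and 76.2% repeated 31-base words, those that occur more than once in the genome.

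Most divergent promoters of histone genes showed DHS on either side of the shared upstream region and a gap over it. In 13 pairs, 12 of H2A with H2B and the pair Hist1h2bh/Hist1h3f, the genes ran apart from starts less than 1 kb from each other, and these pairs held 26 of the 67 genes. In 9 pairs 2 peaks flanked a gap of 106 to 184 bp (median 132 bp) over the stretch between the starts, in 1 pair a single peak covered both starts, and 3 pairs had no DHS. In 3 of the 9 (Hist1h2ae/Hist1h2bg, Hist1h2ah/Hist1h2bk and Hist1h2bf/Hist1h2ad) the gap ran past the start of the H2A gene, which lay 23, 6 and 7 bases from the nearest peak. The share with a gap was 69.2% (exact 95% interval 38.6 to 90.9%), against 21.8% of 711 other divergent pairs of protein-coding genes. The share under a single peak was 7.69% (0.195 to 36%), against 67.4%. Among the 388 other pairs whose distance between starts lay in the range of the histone pairs, 28.6% had a gap and 64.4% a single peak. That range ran from 175 to 692 bases. Its upper end was set by Hist1h2bh/Hist1h3f alone, the next histone pair having 305, so distances were not matched pair by pair. Of the pairs with a DHS, 9 of 10 histone pairs (90%) had the gap, against 30.2% of the other pairs in that range of distances. When peaks closer than 500 bp were merged, 10 of the 13 histone pairs came under a single peak. Gaps of at most 184 bp had to close under that rule, and the other pairs were not merged for comparison.

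The whole stretches between the starts of 5 pairs are printed, on build mm9 and with the same words in capitals. They are not the gaps themselves, because parts of a stretch can lie in peaks. Of the 5 pairs printed, 2 have a gap. The first has the smallest covered share of the pairs with a DHS, which was chosen after the values were seen, the next is a gap pair with a high score, the third is the pair under a single peak, and the last 2 lie in duplicated sequence.
Hist1h2ae/Hist1h2bg, chr13:23663090-23663264, plus strand: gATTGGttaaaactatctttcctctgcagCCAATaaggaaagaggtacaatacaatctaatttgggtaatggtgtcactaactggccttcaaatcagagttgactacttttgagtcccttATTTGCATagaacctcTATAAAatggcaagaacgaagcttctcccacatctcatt
Hist1h2ac/Hist1h2bc, chr13:23775818-23776067, plus strand: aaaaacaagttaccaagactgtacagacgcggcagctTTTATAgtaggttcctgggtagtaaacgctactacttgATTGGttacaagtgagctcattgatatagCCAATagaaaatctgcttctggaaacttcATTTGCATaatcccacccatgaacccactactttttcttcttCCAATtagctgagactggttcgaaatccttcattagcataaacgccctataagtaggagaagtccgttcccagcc
Hist2h2ac/Hist2h2be, chr3:96024804-96025043, plus strand: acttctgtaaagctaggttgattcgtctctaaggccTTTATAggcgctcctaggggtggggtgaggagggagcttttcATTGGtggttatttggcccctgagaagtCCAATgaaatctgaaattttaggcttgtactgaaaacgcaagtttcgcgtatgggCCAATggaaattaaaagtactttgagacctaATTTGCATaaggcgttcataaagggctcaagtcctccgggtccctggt
Hist1h2bq/Hist1h2ao, chr13:21902054-21902235, plus strand: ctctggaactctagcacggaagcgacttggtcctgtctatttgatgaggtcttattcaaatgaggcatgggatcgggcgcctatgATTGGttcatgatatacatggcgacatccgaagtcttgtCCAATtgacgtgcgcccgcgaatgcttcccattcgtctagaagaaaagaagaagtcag
Hist1h2ap/Hist1h2br, chr13:21925445-21925626, minus strand: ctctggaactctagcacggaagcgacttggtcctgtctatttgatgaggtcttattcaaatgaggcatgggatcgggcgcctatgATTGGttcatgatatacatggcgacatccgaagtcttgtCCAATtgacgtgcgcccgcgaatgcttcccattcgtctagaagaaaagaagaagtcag

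At Hist1h2ae/Hist1h2bg, peaks with scores of 94.84 and 102.21 left a gap of 184 bp, and 8% of the bases between the starts lay in a peak. This stretch held the octamer, TATAAA and CCAAT. At Hist1h2ac/Hist1h2bc the peaks had scores of 103.43 and 218.49 and left a gap of 145 bp, and 42% of the bases between the starts were covered. The same words were present there, and so they were at Hist2h2ac/Hist2h2be, where the single peak left no gap. Of the 9 pairs with a gap 3 held the octamer, and all 9 held CCAAT.

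The other pairs with high scores were Hist1h2bh/Hist1h3f, with peaks of 124.69 and 224.87, Hist1h2bl/Hist1h2ai, with 84.98 and 179.25, and Hist1h2ak/Hist1h2bn, with 117.63 and 77.59. At the lower end, Hist1h2ag/Hist1h2bj had 91.18 and 82.29 and Hist1h2ah/Hist1h2bk had 84.29 and 58.66. The peak of the higher score stood on the side of the H2A gene in some pairs, such as Hist1h2bl/Hist1h2ai. In others, such as Hist1h2ac/Hist1h2bc above, it stood on the side of the H2B gene. In the 9 pairs with a gap, the stretch between the starts held no repeated words, except 0.758% of them at Hist1h2ag/Hist1h2bj. Histone genes in divergent pairs had a median highest score of 113 over the 20 with a DHS, and those outside pairs 170.6 over 38.

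**Figure D3:**
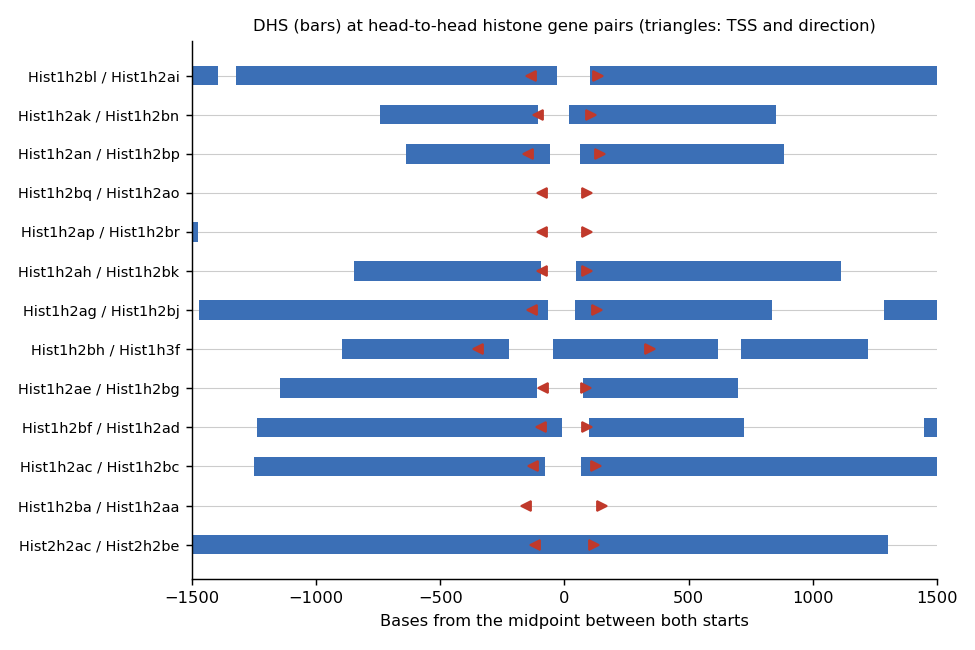
DHS (blue bars, cut at the edge of the plot) around the midpoint between both starts of the 13 divergent histone gene pairs, with red triangles at the TSSs pointing in the direction of transcription; the horizontal axis is in bases. In 9 pairs 2 bars leave a gap near the midpoint, in Hist2h2ac/Hist2h2be a single bar covers it, and 3 pairs have no DHS at the starts.

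The same shape appeared in the profile around the TSS. Over the 58 histone genes with a DHS, 94.8% had a peak over the base 23 bases after the start and 86.2% over the start itself, while 51.7% had one 108 bases before it. From 300 bases upstream to the TSS, the lowest value in the 20 genes of divergent pairs was 20%, at 126 bases before the start. In the 38 other genes it was 65.8%. The profiles of the comparison groups were shallower in the same stretch, with a lowest value of 76.3% for ribosomal protein genes and 67.2% for all protein-coding genes with a DHS. Repeated words were few at the dip. In the histone genes 8.38% of the 31-base words from 200 to about 100 bases upstream were repeated, and 72.4% of those from about 100 to 200 bases downstream, where the mean coverage by DHS was 59.1% and 94.8%. The mean number of peaks of a gene with a DHS was 1.53 for histone genes, counting shared peaks for each gene, and 1.49 for all protein-coding genes. At 30 of 58 histone genes (51.7%) there were 2 or more, against 37.4% of all protein-coding genes with a DHS (20.1% of all protein-coding genes). H1 and H4 genes had a mean of 1 and 1.17 peaks, and H2A, H2B and H3 genes 1.67, 1.67 and 1.82.

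Of the 9 histone genes without a DHS, 5 lay in or at the edge of a stretch of chromosome 13 that is present in 2 copies. Hist1h2bq and Hist1h2ao stand in the first copy and Hist1h2ap and Hist1h2br in the second, in opposite orientation. The copies at chr13:21893127-21903649 and chr13:21924031-21934553 matched without a difference over 10523 bp, and the stretches between the starts of Hist1h2bq/Hist1h2ao and Hist1h2ap/Hist1h2br printed above are the same 182 bases. The first copy reaches just past the start of Hist1h4m, most of whose transcript lies beyond it, and its window of 1 kb on each side had 80.6% of positions in common with that of Hist1h4n when compared without gaps. Within 1 kb of these 5 starts 96 to 100% of the 31-base words were repeated. The sixth gene there, Hist1h4n (96.1% repeated), had a single DHS of 29.92. This was the lowest when the highest-scoring peak of each histone gene was compared. It lay at chr13:21923714-21924058, began outside the exact match and reached into it. Reads that lie wholly in such copies cannot be assigned to either, and how the aligner's multiple hits were treated is not given in the sources used here.

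Over all histone genes, the windows with a DHS had a median of 23.6% repeated words (0.1 to 96.1%) and those without one a median of 96% (0 to 100%). Where at least 50% of the words were repeated, 4 of 9 histone genes had a DHS (44.4%), and elsewhere 54 of 58 (93.1%). In a sample of every 20th protein-coding gene, the same split gave 4 of 78 (5.13%) and 567 of 1038 (54.6%). The part of repeated sequence in the missing DHS was not tested.

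The other 4 histone genes without a DHS lay mostly in sequence that occurs once. Hist1h1t had 0% repeated words. Hist1h2ba and Hist1h2aa, the divergent pair that encodes the H2B and H2A of male germ cells, had 10.8%, and their nearest DHS was more than 16 kb away, at 16496 and 16190 bp. Hist1h2al, far from the other genes of Hist1, had 41.7% and its nearest DHS at 30988 bp. Of the 13 divergent pairs, Hist1h2ba/Hist1h2aa was the only one without a DHS outside the duplicated stretch. Its upstream region held the octamer, TATAAA and CCAAT, as did 3 of the 10 pairs with a DHS.

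**Figure D4:**
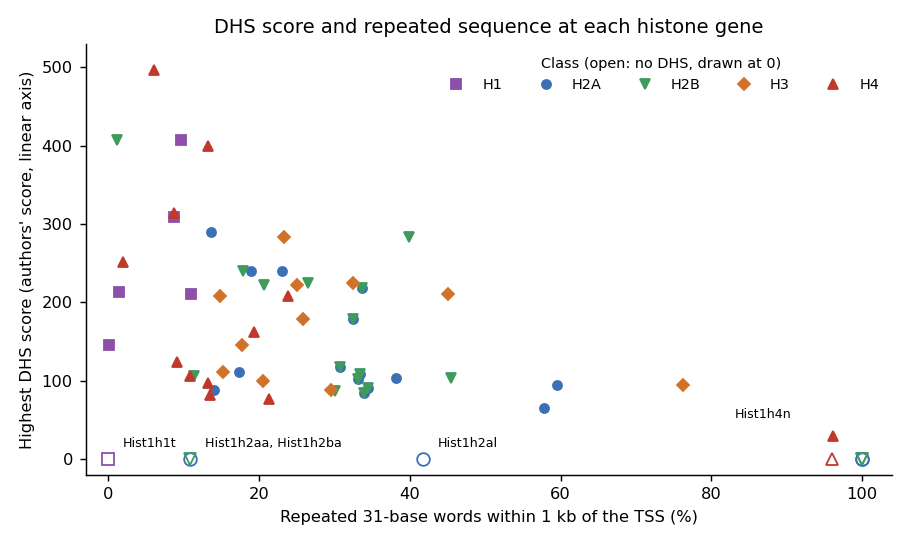
Highest DHS score (authors' score, on a linear axis) against the percentage of repeated 31-base words within 1 kb of the TSS for the 67 histone genes, with a symbol for each class; open symbols at 0 are genes without a DHS. The 5 open symbols at 96 to 100% are the genes in or at the edge of the duplicated stretch, and the other 4 lie at 41.7% or below.

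Genes whose products make or process histone mRNA had a DHS at 18 of 18 (exact interval 81.5 to 100%), against 53.7% of all protein-coding genes and 84.1% of those with a CpG-rich promoter, which 12 of the 18 had. They had a median highest score of 127.5 and a range of 65.27 to 343.2. Npat, the coactivator of the clusters, had 101.2, and Casp8ap2, its partner in the histone locus body, had 110.5. Hinfp, which binds H4 promoters, had 77.7. Of the factors for the words above, the NF-Y subunit genes Nfya, Nfyc and Nfyb had 343.2, 225.2 and 105.3. Pou2f1, which encodes OCT-1, had 314.7, and Tbp, for the TATA box, had 110.1. For the end of the mRNA, Slbp had 199.8, Eri1, an exonuclease that binds the stem-loop, had 250.2, and Lsm10 and Lsm11, subunits of the U7 particle, had 65.27 and 71.94. With the start codon in place of the TSS 11 of the 18 genes (61.1%) had a DHS within 1 kb, against 39.5% of all protein-coding genes.

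Replacement histone genes, which lie outside the clusters and are made throughout the cell cycle or have special roles, had a DHS at 8 of 10 (80%). Of the 10 genes 9 had a CpG-rich promoter, and the share was near the 84.1% of all CpG-rich promoters. H3f3b and H3f3a, the genes of H3.3, had 427.9 and 206.3, H2afx had 244.5, H2afz 139.7 and Cenpa, the centromeric H3, 138.6. H2afy, a macroH2A gene, had 39.24, and its relative H2afy2 and the linker histone gene H1fx had none.

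The labelled cell type was checked by marker genes. Among B cell genes, a DHS within 1 kb of a TSS was called at Pax5 (score 265.3), Ms4a1 (215.8), Ebf1 (142), Blk (110.3), Cd79b (109.2), Cd79a (107.5) and Cd22 (83.97). Of 5 T cell genes only Lck had one (68.87). Of the myeloid genes Itgam (18.16) and Cd14 (51.05) had one and Lyz2, Csf1r and Mpo had none. Among erythroid genes Klf1 (177.8) had one and Hbb-b1, Epor and Alas2 had none. The share of other cells among those selected was not tested, and their part in the DHS of histone genes was not tested.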

How the data were processed

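Splenic B cells were profiled by DNase I sequencing (1 DNaseI library, 1 input library with no file used here). Per the study's methods, apoptotic cells were removed on a Ficoll gradient and of several enzyme concentrations the digest that qPCR favoured was sequenced. The submitters' processing notes name BWA 0.6.2, SAMtools and mm9. The authors deposited a peak list of the MACS caller with a score per peak. The scale of the deposited score, the caller's version and settings and the treatment of multiple alignments are not given for this library in the sources used here, and what the study states for its ChIP-seq was not carried over. The list holds no read counts, so depth is unknown.

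Peaks were overlapped (at least 1 bp) with GENCODE M1 genes and the matching genome build, using Python 3.11.15, pysam 0.24.0, numpy 2.4.6, numba 0.67.0 and samtools 1.23.1. Words of 31 bases were counted over the whole genome on both strands. Promoters were CpG-rich when GC reached 55% and the CpG observed/expected value 0.6 in the central 1000 bp. Intervals are exact binomial (Clopper-Pearson, scipy 1.17.1). Steps were tested on simulated data. H1f0, listed among the replacement histones, was not found among the protein-coding genes of this annotation and was left out. Some genes of the cell type lists are not reported here. The words of the histone promoters were searched on both strands and the stem-loop on the sense strand.

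The members, gene lists and alternatives were chosen with earlier results of these data known. Named were the histone genes without a peak, the 10 with the highest and the 5 with the lowest score, all genes of H1, Hist2, Hist3 and Hist4, the 5 divergent pairs with the highest and the 5 with the lowest score, and for sequence the highest member of each class and a member without a peak or with the lowest score. Of these sequences those of H2A and H2B genes are shown only as pairs. Alternatives changed the score threshold, merged peaks, the window, the overlap, the start used, the stem-loop requirement, repeated windows and the length of words.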

Additional observations from a re-analysis of the deposited data

How the results depend on the processing

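Of 148 alternative values, 6 moved outside the interval of the value reported. The other 142 stayed within it or, for the number of distinct peaks, which has no interval, within 1.5 times the count. Merging peaks closer than 500 bp came to that limit, with 38 distinct DHS at histone genes in place of 57. Requiring the TSS inside the peak gave 74.6% of histone genes and 52.6% of H2A genes with a DHS, against 46.6% of all protein-coding genes under the same rule. The window from 5 kb upstream to 2 kb downstream gave 100% of H1 genes, against 57% of all genes. The peak over the TSS of Hist1h4c then counts for Hist1h1t. Leaving out windows with at least 50% repeated words gave 100% of H4 genes. Merging peaks closer than 500 bp put 76.9% of the divergent pairs under a shared peak, since it closes gaps of their size by rule. The start codon in place of the TSS gave 61.1% of the genes for histone mRNA processing, against 39.5% of all genes. This alternative, and that of the stem-loop near the stop codon, were chosen after seeing the data. Except as stated, the cause was not tested. With 50-base words the median repeated share was 18.7% in windows with a DHS and 93.2% in those without.

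No paired analysis was possible because there is 1 library in each group and the input library has no values here. The lack of replicates and of read depth limits every share to a description.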

Other observations

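Genes of the clusters that the annotation calls pseudogenes had DHS as well, each of them also counted at a protein-coding histone gene. Hist3h2bb-ps lay under the same DHS as Hist3h2a, with a score of 290.6. Hist1h2aj, which starts next to Hist1h2bm, shared with it peaks of 69.65 and 87.25. Hist2h3c2 shared a peak of 38.58 with Hist2h2aa2, in a window with 80% repeated words.

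Some DHS in the clusters lay away from any histone start. The highest, with a score of 240.23, stood at chr3:96081185-96082856, 7510 bp from the start codon of Hist2h2bb. Another, at chr13:23792475-23793717, had 116.95 and lay 2152 bp from the TSS of Hist1h4c. A DHS with 63.92 at chr13:23780597-23781001 was 4529 bp from the TSS of Hist1h2bc.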
